A study of Mus musculus with 2 samples.

Results

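Male germ cells were compared after 72 h of culture of XY foetal gonads with an inhibitor of FGF receptors or with the vehicle alone. The comparison used 8 of the 40 germ cell libraries of the study, 4 from gonads kept in 500 nM BGJ398/Infigratinib (FGFRi) and 4 from gonads kept in DMSO, and it took the libraries that the labels name by sex, culture time and treatment. Replicates were numbered 2, 4, 5 and 6 in each group, and all 8 libraries were made in the second of 2 library pools. Gonads with the mesonephros attached were dissected at E12.5 from embryos of a Swiss by 129T2svJ cross that carried an Oct4-eGFP reporter, a transgene active in germ cells, so that both groups shared the stage, the reporter and the culture. After culture the mesonephros was taken off, cells of several embryos' gonads were dissociated as 1 pool per replicate, and cells with GFP fluorescence were sorted. The sort is bulk, so fewer cells making a transcript and less transcript per cell cannot be told apart. The inhibitor was given to whole gonads, so an effect on germ cells through their somatic neighbours cannot be told apart from one in the germ cells themselves.

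FGF ligands bind receptor tyrosine kinases of the FGFR family, which signal through the adaptor FRS2, the GTPase RAS and the kinases RAF, MEK and ERK to the nucleus, where ETS factors such as ETV4 and ETV5 are induced and feedback inhibitors of the DUSP and SPRY families are made. In the foetal testis, Sertoli cells secrete FGF9, and male germ cells of this stage leave the cell cycle, lower their pluripotency genes, turn on Nanos2 and de novo DNA methylation and piRNA genes, and do not enter meiosis as XX germ cells do. MEK lies below the receptors and also passes on signals from other receptor kinases, so the study's MEK1/2 inhibitor PD0325901/Mirdametinib (MEKi), given at the same dose and for the same time, serves as another reference here.

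Total counts of unique molecules were 2262671 to 5199153 per library in FGFRi and 1462982 to 2309884 in DMSO, a difference that 4 against 4 libraries did not separate (two-sided exact permutation test, p = 0.0571, adjusted p = 0.143 over 4 library measures, where 0.0286 is the smallest p the design allows). The germ cell label held in all 8 libraries. Ddx4, which encodes the germ cell RNA helicase VASA, was at 410 to 498 CPM (counts scaled to a common library size) in FGFRi and 493 to 563 CPM in DMSO, and Dazl, a germ cell RNA-binding protein, at 721 to 928 CPM and 849 to 942 CPM. The 44 markers of Sertoli, Leydig and interstitial, granulosa, endothelial, macrophage and erythroid cells together took 0.0199% to 0.0273% of the counts in FGFRi and 0.0260% to 0.0317% in DMSO, with Insl3 and C1qa at 0 in every library of both groups.

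The change across the transcriptome was small. CPM here are relative to a library size that was corrected with TMM factors, and a fold change is FGFRi over DMSO in log2 unless stated. Of 15252 genes tested, 1 gene (0.00656%) differed by more than 1.5-fold at a false discovery rate (FDR) under 0.05 with limma treat, and it was higher in FGFRi. No gene was called lower by limma treat (0% of genes) or by DESeq2, edgeR glmTreat called 1, and in either direction 89 genes (0.584%) had an unadjusted treat p under 0.05. When no fold was required, limma eBayes called 164 genes (1.08%), 68 higher (0.446%) and 96 lower (0.629%), with a median absolute log2 fold change of 0.592. That count moved with single libraries, from 42 without DMSO replicate 5 and 43 without FGFRi replicate 2 to 414 without FGFRi replicate 6, so a gene called only in this way is given below with the adjusted p of that test. The 2 groups did not overlap for 1024 genes (6.71%), of which 557 were higher (3.65%) and 467 lower (3.06%) in FGFRi.

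The median gene had an absolute log2 fold change of 0.188. Of all tested genes, 9.78% were more than 1.5-fold apart and 2.37% more than 2-fold apart, before any test. The same DMSO libraries set against MEKi gave a median of 0.437 with 37.9% of genes more than 1.5-fold apart, and set against XX germ cells in DMSO at 72 h gave 0.924 and 66.1%. These contrasts share the DMSO libraries and their values stand side by side only. The 95% confidence interval of the fold change lay wholly within 1.5-fold in either direction for 7142 genes (46.8%). Whether an interval was that narrow depended on the level of the gene. None of 2588 genes under 5 CPM had one, against 68.5% of genes at 20 to 50 CPM and 93.4% of genes over 100 CPM, and above 20 CPM it was 6373 of 7861 genes (81.1%).

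**Figure D1:**
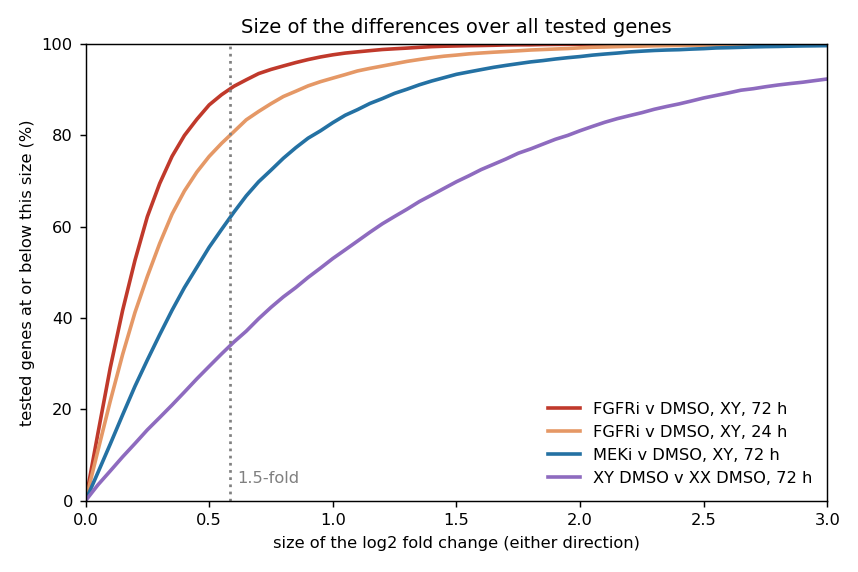
Cumulative percent of the 15252 tested genes (vertical axis) at or below an absolute log2 fold change (horizontal axis) in 4 comparisons. The curve for FGFRi against DMSO at 72 h climbs fastest, with a median of 0.188, and that for XY against XX germ cells slowest, with a median of 0.924.

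Distances between libraries gave the same order of sizes. Over the 500 genes that differed most in each pair, the leading log2 distance between a FGFRi and a DMSO library had a median of 1.77 (1.42 to 2.05, 16 pairs). It was 1.90 (1.64 to 2.08, 6 pairs) between DMSO replicates and 1.46 (1.19 to 1.71, 6 pairs) between FGFRi replicates. The median between treatments thus lay below that between DMSO replicates and above that between FGFRi replicates. The FGFRi libraries had the larger mean total count, and the part of depth in these distances was not tested. FGFRi and MEKi libraries lay 2.38 apart by the median, FGFRi and DMSO libraries each lay 4.14 from XX libraries, and MEKi libraries lay 3.44 from them. On the first principal component of the 72 h libraries, which held 80.9% of the variance, FGFRi libraries lay at -46.8 to -40.6 and DMSO libraries at -44.3 to -38.5, and these ranges overlap. On the third component, which held 1.5% of the variance, they did not overlap, with FGFRi libraries at -9.56 to -1.16 and DMSO libraries at -0.857 to 18.1.

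**Figure D2:**
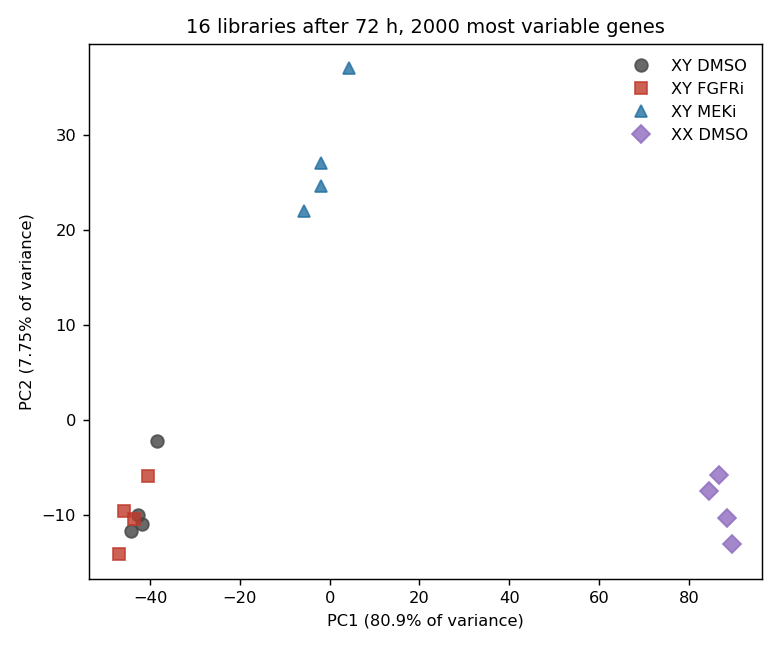
Principal components of log2 CPM over the 2000 most variable genes in the 72 h libraries, with 1 point per library, PC1 (80.9% of variance) across and PC2 (7.75%) up. FGFRi and DMSO points share the left side of PC1, at -46.8 to -38.5, away from the XX libraries.

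Abca1 was the gene called. It encodes the membrane transporter that loads cholesterol and phospholipid onto apolipoproteins, and its transcription is driven in many tissues by liver X receptors (LXR), nuclear receptors that bind oxysterols and pair with retinoid X receptors at a repeat of a hexamer spaced by 4 bases (DR4). It lies on chromosome 4 (GRCm39, 53030787 to 53159900, minus strand, ENSMUSG00000015243). The 250 bases before its start are shown because they hold a DR4 match. In the sequence read from GRCm39 before the start that GENCODE M39 gives (chr4:53159901-53160150, minus strand, 5′ to 3′), capitals mark the match, which begins 62 bases before the start. The pattern is GGTNA, then 5 bases of any kind, then GGTCA, and here it lies on the opposite strand.

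Abca1 promoter: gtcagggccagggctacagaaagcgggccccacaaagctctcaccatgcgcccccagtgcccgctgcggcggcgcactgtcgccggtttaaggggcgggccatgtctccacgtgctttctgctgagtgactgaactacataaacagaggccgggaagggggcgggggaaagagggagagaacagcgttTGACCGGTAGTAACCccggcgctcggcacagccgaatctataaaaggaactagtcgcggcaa

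That pattern, searched on both strands, occurs in 28 of 21770 promoters of the same length (0.129%) and in 15 of the 12419 promoters of tested genes (0.121%). It was written with Abca1 in view, and a match is a description of the letters, not of a bound site. Among the LXR targets and sterol export genes described below, the match was found in the promoter of Abca1 alone.

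Abca1 was at 151, 134, 124 and 106 CPM in FGFRi replicates 2, 4, 5 and 6, and at 49.7, 49.3, 49.9 and 53.7 CPM in DMSO replicates 2, 4, 5 and 6. Every FGFRi library was above every DMSO library, and the lowest FGFRi value was well clear of the highest DMSO value. The group means were 129 ± 19.2 and 50.7 ± 2.07 CPM (SD, n = 4), which is 1.39 in log2 (SE 0.12, 95% interval 1.14 to 1.64), or 2.61-fold, with an FDR of 0.000276 against 1.5-fold by limma treat. In MEKi libraries Abca1 was at 49.5 ± 4.50 CPM (SD, n = 4). Set directly against FGFRi, MEKi was lower, at -1.40 in log2 (FDR 5.6e-08 by limma treat), while its fold change from DMSO was -0.01. Across culture, Abca1 went from 13.7 CPM at 0 h to 22.3 CPM at 24 h and 50.7 CPM at 72 h in DMSO, and was at 62.3 CPM after 24 h of FGFRi. The 0 h and 24 h vehicle libraries were in pool 1 and those of 72 h in pool 2, so time and pool cannot be told apart from 24 h to 72 h. The 24 h FGFRi libraries were in pool 2 and the 24 h DMSO libraries in pool 1, so drug and pool cannot be told apart in the 24 h difference of 1.42 in log2 (FDR 0.0043 by limma treat), and the effect at 72 h less that at 24 h was -0.03 (SE 0.21).

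**Figure D3:**
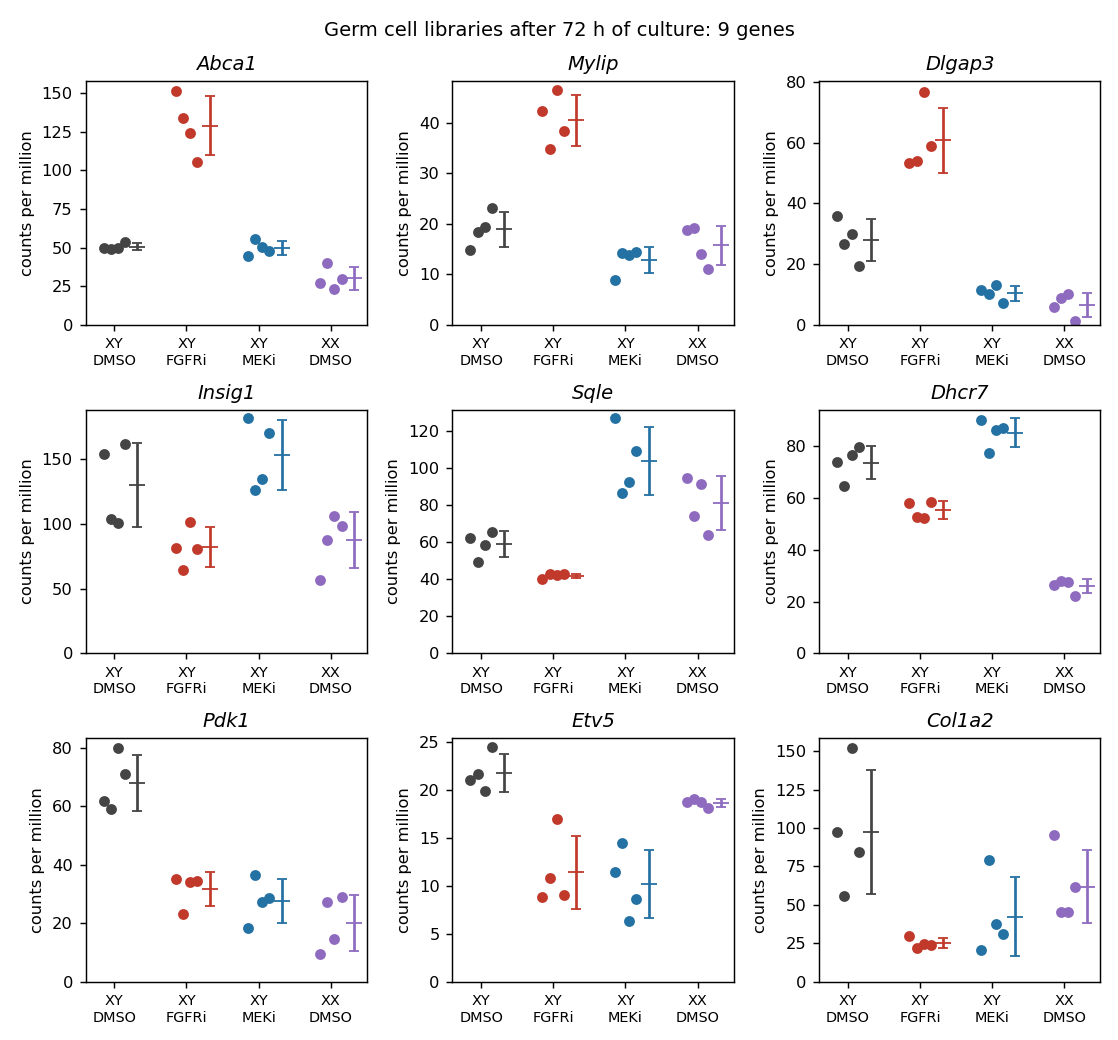
CPM (vertical axes, each from 0) of 9 genes in each 72 h library, with a point per replicate and, beside the points, the group mean with its SD (n = 4) in XY DMSO, FGFRi and MEKi and in XX DMSO. Abca1, Mylip and Dlgap3 lie higher in FGFRi than in DMSO with no overlap, and Pdk1, Etv5 and Col1a2 lie lower with no overlap.

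Of the 15 genes tested on a list of LXR targets and sterol export genes, 2 were called higher by limma eBayes and 0 lower. Over all tested genes, eBayes called 0.446% higher and 0.629% lower. On the list, 10 had a fold change above 0 and 5 below, and the median was 0.197 beside 0.00841 over all tested genes. The list holds Abca1 itself. The other call was Mylip, which encodes the ubiquitin ligase IDOL and is another textbook LXR target. Mylip was at 42.3, 34.8, 46.4 and 38.4 CPM in FGFRi replicates 2, 4, 5 and 6 and at 14.8, 18.4, 19.3 and 23.2 CPM in DMSO. No FGFRi library overlapped a DMSO library. Mylip rose by 1.12 in log2 (SE 0.21, FDR 0.00136 by limma eBayes, not called by treat), and MEKi was lower than FGFRi by -1.56 (FDR 3.7e-05 by limma treat).

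Other members of the list were not called. Rxra, the partner of LXR, was at 41.8 to 66.1 CPM in FGFRi and 34.6 to 38.0 CPM in DMSO, with no overlap and a fold change of 0.52 (eBayes FDR 0.064 by limma). Fasn, the fatty acid synthase, was at 118 to 143 CPM against 92.5 to 111 CPM, again with no overlap (0.37, eBayes FDR 0.083 by limma). Abcg1, another sterol exporter, overlapped between the groups at 76.0 to 102 CPM in FGFRi and 40.1 to 104 CPM in DMSO. Lpcat3, which remodels phospholipids, was at 134 ± 14.6 CPM in FGFRi and 139 ± 9.83 CPM in DMSO (SD, n = 4), with an interval of -0.24 to 0.14.

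Genes of cholesterol synthesis and uptake had mostly negative fold changes. Of 26 tested, 20 were below 0 and 6 above, and the median was -0.279. By limma eBayes 1 was called lower, beside 0.629% of all tested genes. The mean log2 CPM of the list lay at 4.84 to 4.92 over the FGFRi libraries and 4.98 to 5.25 over the DMSO libraries, without overlap. The called gene was Insig1, which holds SREBP in the endoplasmic reticulum and is itself induced by it. It was at 81.0, 64.3, 102 and 80.6 CPM in FGFRi and 154, 104, 100 and 162 CPM in DMSO. FGFRi replicate 5 was above DMSO replicate 5 and below the other DMSO libraries, and Insig1 fell by 0.70 on the log2 scale (SE 0.17, FDR 0.027 by limma eBayes).

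In Sqle, Cyp51 and Dhcr7 every FGFRi library was below every DMSO library, as for 3.06% of all tested genes. None of Sqle, Cyp51 and Dhcr7 passed the test. Sqle, the squalene epoxidase, was at 40.1 to 42.7 CPM in FGFRi and 49.3 to 65.7 CPM in DMSO (log2 fold change -0.49, eBayes FDR 0.074 by limma), and Cyp51, the lanosterol demethylase, at 9.28 to 15.1 CPM against 17.9 to 24.6 CPM. Dhcr7, which makes the last step to cholesterol, was at 52.2 to 58.6 CPM and 64.8 to 79.6 CPM. Fdft1, the squalene synthase, was at 166 ± 11.9 CPM in FGFRi and 153 ± 16.3 CPM in DMSO (SD, n = 4). The low-level isomerase gene Ebp had the largest fold change of the list, 1.23 (eBayes FDR 0.28 by limma), at 4.58 and 1.98 CPM.

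The inhibitors were tested directly against each other on this list, with no control in common. Across all genes 871 were higher in MEKi than in FGFRi (5.71%) and 1065 lower (6.98%) by limma treat. Of the 26 cholesterol genes 7 were higher in MEKi and 0 lower. Cyp51 was at 54.7 ± 6.26 CPM in MEKi and 12.6 ± 2.57 CPM in FGFRi (SD, n = 4), a difference of 2.06 in log2 (FDR 7.4e-11 by limma treat). Sqle was at 104 ± 18.4 CPM in MEKi against 41.9 ± 1.22 CPM in FGFRi (SD, n = 4, FDR 4.5e-05 by limma treat).

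Genes for the receptors that the drug blocks, and for the cascade below them, were not called. Of 23 FGF receptor and MAPK cascade genes tested, 0 were called by treat or by eBayes, 12 were above 0 and 11 below, the median was 0.00548, and all 15 of those over 20 CPM had an interval within 1.5-fold. Fgfr1 was at 46.4, 41.1, 49.1 and 42.7 CPM in FGFRi and 45.6, 44.7, 43.3 and 45.1 CPM in DMSO, with an interval of -0.30 to 0.28. Fgfr2 was at 7.11, 7.57, 3.87 and 5.60 CPM in FGFRi and 3.13, 0.836, 2.66 and 2.65 CPM in DMSO, without overlap, but was not called (log2 fold change 1.49, SE 0.48, eBayes FDR 0.10 by limma). Map2k2, which encodes MEK2, was at 151 ± 5.09 and 147 ± 10.5 CPM (SD, n = 4). Mapk3, which encodes ERK1, was at 149 ± 20.5 CPM in FGFRi, 130 ± 20.4 CPM in DMSO and 50.02 ± 8.43 CPM in MEKi, where it was lower than in FGFRi by -1.48 (FDR 1.0e-07 by limma treat). Only 4 of 13 FGF ligand genes passed the filter on low counts. None of these was called, and Fgf8 was at 11.6 ± 2.18 and 8.24 ± 0.88 CPM (SD, n = 4), Fgf13 at 7.52 and 4.16 CPM and Fgf2 at 2.73 and 4.24 CPM.

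Feedback and target genes of ERK mostly had fold changes below 0. Of 19 tested, 1 was called lower by limma eBayes, beside 0.629% of all tested genes. Below 0 were 15 and above 0 were 4, with a median of -0.229. The mean log2 CPM of the list lay at 3.10 to 3.29 over the 4 FGFRi libraries and 3.39 to 3.56 over the DMSO libraries, which did not overlap. The mean log2 CPM of the interstitial cell markers was also lower in FGFRi without overlap, at 2.68 to 2.88 against 3.25 to 3.80, and their part in the values of the ERK and other lists was not tested. Etv5, an ETS factor induced by FGF and ERK and needed later by spermatogonial stem cells, was at 8.80, 10.8, 17.01 and 9.05 CPM in FGFRi and 21.0, 21.7, 20.0 and 24.6 CPM in DMSO. The highest FGFRi library was below the lowest DMSO library, and Etv5 fell by 1.07 on the log2 scale (SE 0.24, FDR 0.012 by limma eBayes). In MEKi it was at 10.2 ± 3.53 CPM (SD, n = 4), and the difference between the inhibitors was -0.20 (SE 0.25).

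Other ERK genes were not called. Dusp6, the ERK phosphatase, was at 3.02 to 4.23 CPM in FGFRi and 4.18 to 10.7 CPM in DMSO, which overlapped narrowly (-0.92, eBayes FDR 0.24 by limma). Spry4 had means of 0.593 and 0.591 CPM, too low for a difference to be seen at this depth. Dusp4, another ERK phosphatase, was at 0.918 and 2.19 CPM (-1.27, eBayes FDR 0.41 by limma). Il17rd, an FGF signalling antagonist, was at 45.7 ± 7.41 and 47.2 ± 7.31 CPM (SD, n = 4, interval -0.32 to 0.27). Nab2, a corepressor of EGR factors and an ERK target, was at 56.1 ± 10.3 CPM in FGFRi and 54.9 ± 9.48 CPM in DMSO but 14.2 ± 1.83 CPM in MEKi, lower than in FGFRi by -1.98 (FDR 5.3e-09 by limma treat).

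A short list holds the genes that earlier results on these libraries had shown to respond at 24 h, so its direction is not independent evidence. Of 7 tested, 2 were called lower at 72 h by limma eBayes (0.629% of all tested genes were) and 0 higher. The median was -0.825. Their mean log2 CPM lay at 2.95 to 3.11 in FGFRi and 3.46 to 3.81 in DMSO, without overlap. Pdk1, the kinase that shuts pyruvate dehydrogenase, was at 35.2, 23.2, 34.0 and 34.5 CPM in FGFRi and 61.8, 58.9, 79.9 and 71.0 CPM in DMSO. No library overlapped, and Pdk1 fell by 1.11 on the log2 scale (SE 0.16, FDR 5.73e-05 by limma eBayes, not called by treat). MEKi libraries were at 27.7 ± 7.44 CPM (SD, n = 4), a difference from FGFRi of -0.12 (SE 0.17). Lrrfip1 was at 30.5 to 41.0 CPM in FGFRi and 43.0 to 72.3 CPM in DMSO and fell by 0.68 (FDR 0.018 by limma eBayes). Ret, the receptor for GDNF, was at 9.05 to 15.5 CPM and 20.6 to 24.0 CPM, without overlap, and missed the threshold (-0.83, eBayes FDR 0.062 by limma). The ETS factor gene Etv1 was at 1.29 and 2.67 CPM (-1.14, eBayes FDR 0.41 by limma).

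Whether the FGFRi effect differed between 72 h and 24 h was tested as an interaction, and 5 genes were called by limma treat (0.0328%), 4 with a higher and 1 with a lower fold change at 72 h. The 24 h DMSO libraries were in pool 1 and the other 3 groups of the interaction in pool 2, so time is confounded with pool and the pair cannot be told apart. Etv4 had 0 counts in all 4 libraries after 24 h of FGFRi and 27.9 ± 7.19 CPM in 24 h DMSO, at least 56-fold higher against a floor of 3 counts over the group. At 72 h it was at 2.10 ± 0.927 CPM in FGFRi and 3.99 ± 2.12 CPM in DMSO (SD, n = 4). The vehicle was thus lower at 72 h than at 24 h, in libraries of different pools. The fitted interaction was 5.20 (SE 0.79, FDR 0.0020 by limma treat), a value that depends on how the 0 counts are fitted.

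Of the other genes of the interaction, 3 had a smaller fold change at 72 h than at 24 h and 1 had the opposite sign. Ret was at 1.37 CPM after 24 h of FGFRi and 30.8 CPM in 24 h DMSO, with a log2 fold change of -4.98 at 24 h and -0.83 at 72 h. Pmaip1, which encodes the pro-apoptotic BH3 protein NOXA, had fold changes of -3.10 and -0.49 and went in DMSO from 66.5 CPM at 24 h to 16.5 CPM at 72 h. Nherf1, a scaffold of membrane proteins, had -1.99 and -0.19. Sparcl1, an extracellular matrix gene, had 2.01 at 24 h and -1.46 at 72 h. Its call was lost without 72 h FGFRi replicate 2 and without 72 h DMSO replicate 2. In each of these fits limma treat called 3 genes in the interaction, all higher at 72 h, against 4 higher in the main fit. In contrast, Pdk1 was at -2.22 and -1.11, and Mylip at 1.19 and 1.12, and neither was called in the interaction.

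**Figure D4:**
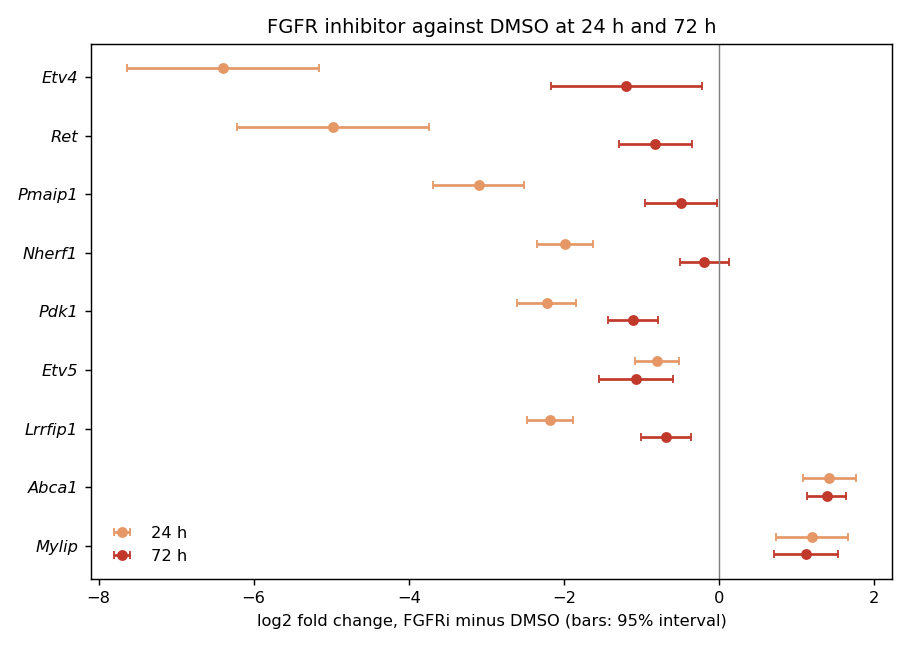
Log2 fold change of FGFRi over DMSO (horizontal axis) at 24 h and at 72 h for 9 genes, with 95% intervals. Etv4, Ret, Pmaip1 and Nherf1 lie nearer 0 at 72 h than at 24 h, and Abca1 and Mylip lie at 1.12 to 1.42 at both times.

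In glycolysis, 3 of 18 tested genes were called by limma eBayes, 1 higher and 2 lower, beside 1.08% of all tested genes. The median was -0.028. The list includes Pdk1, given above. Hk1, a hexokinase, was at 34.5, 35.6, 32.5 and 26.7 CPM in FGFRi and 19.2, 22.1, 17.3 and 16.6 CPM in DMSO and rose by 0.79 in log2 (FDR 0.019 by limma eBayes), with no overlap. Aldoa, an aldolase, was at 174 to 218 CPM and 252 to 280 CPM and fell by 0.42 (FDR 0.017 by limma eBayes), also with no overlap. Pkm, the pyruvate kinase, was at 539 ± 108 and 637 ± 35.1 CPM, and Gpi1, the glucose phosphate isomerase, at 294 ± 23.0 and 265 ± 32.9 CPM (SD, n = 4). Hk1 was lower in MEKi than in FGFRi by -1.04 (FDR 0.029 by limma treat), while Aldoa differed between them by -0.10 (SE 0.10).

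Genes of male fate and DNA methylation were not called. None of the 15 tested was called by treat or eBayes, 7 were above 0 and 8 below, the median was -0.0229, and 11 had an interval within 1.5-fold. The mean log2 CPM of the list was lower in every FGFRi library (6.999 to 7.081) than in any DMSO library (7.130 to 7.134). All 15 were over 20 CPM, where 81.1% of all tested genes had such an interval. Dnmt3l, the cofactor of de novo methylation, was at 156, 127, 211 and 125 CPM in FGFRi and 135, 177, 131 and 108 CPM in DMSO, and the groups overlapped. In MEKi it was at 13.4 ± 6.09 CPM (SD, n = 4), lower than in FGFRi by -3.30 (FDR 1.9e-16 by limma treat). Dnmt3a, a de novo methyltransferase, was at 477, 514, 620 and 546 CPM in FGFRi and 496, 554, 546 and 547 CPM in DMSO, with an interval of -0.19 to 0.15.

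Some members of the same list had fold changes below 0. Nanos2, the RNA-binding regulator of male germ cell fate, was at 21.8, 24.5, 11.2 and 21.1 CPM in FGFRi and 27.8, 28.8, 26.6 and 25.9 CPM in DMSO. All FGFRi libraries were below all DMSO libraries, the log2 fold change was -0.43 (SE 0.21, interval -0.85 to -0.01), and the eBayes FDR was 0.32 by limma. Nxf2, an RNA export factor gene on the X chromosome, was at 598 to 872 CPM and 925 to 1047 CPM, again with no overlap (-0.47, eBayes FDR 0.094 by limma). Dppa4 was at 666 ± 89.8 and 794 ± 81.9 CPM, and Spocd1, which ties piRNAs to methylation, at 170 ± 30.9 and 197 ± 26.1 CPM (SD, n = 4). Spocd1 was at 19.6 ± 3.77 CPM in MEKi, lower than in FGFRi by -2.99 (FDR 9.0e-18 by limma treat). In the direct test of MEKi against FGFRi 7 of the 15 were lower (6.98% of all tested genes were) and 1 was higher (5.71%).

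Genes of the piRNA pathway, which silences transposons, had narrow intervals around the vehicle level. Of 19 tested, all over 20 CPM, 18 had an interval within 1.5-fold, 0 were called by treat or eBayes, 8 were above 0 and 11 below, and the median was -0.0156. Piwil4, the nuclear PIWI protein, was at 288, 242, 307 and 325 CPM in FGFRi and 274, 265, 276 and 231 CPM in DMSO, with an interval of -0.11 to 0.33. It was at 61.9 ± 10.8 CPM in MEKi (SD, n = 4), lower than in FGFRi by -2.14 (FDR 3.6e-15 by limma treat). Tdrd9, its helicase partner, was at 310 ± 62.4 CPM in FGFRi, 290 ± 40.2 CPM in DMSO and 71.5 ± 26.7 CPM in MEKi (SD, n = 4). Tex15 at 909 ± 122 and 873 ± 34.2 CPM and Mov10l1 at 552 ± 63.5 and 610 ± 56.4 CPM (SD, n = 4), overlapped between the groups. The member without a narrow interval was the tudor protein gene Rnf17, at 366 to 443 CPM in FGFRi and 478 to 605 CPM in DMSO, whose interval was -0.57 to -0.16. Directly against FGFRi, MEKi had 8 of the 19 lower (6.98% of all tested genes were) and 0 higher.

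**Figure D5:**
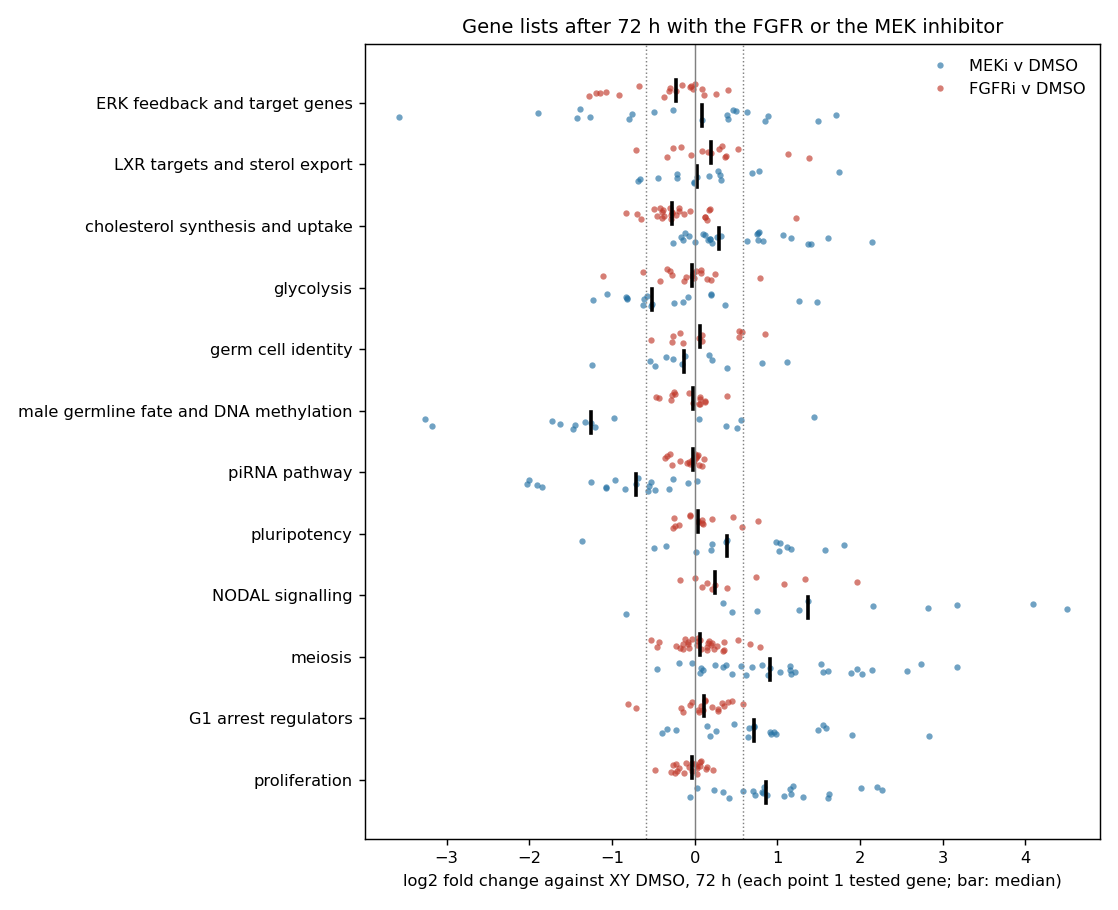
Log2 fold change from DMSO at 72 h (horizontal axis) of the tested members of each gene list, with 1 point per gene for FGFRi and for MEKi a bar at each list's median and dotted lines at 1.5-fold. FGFRi medians of the male fate, piRNA, meiosis and proliferation lists lie between -0.0337 and 0.0631, and MEKi medians between -1.25 and 0.908.

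General germ cell genes held no call by treat or eBayes. Of 12, 7 were above 0 and 5 below, with a median of 0.0695. An interval within 1.5-fold was found for 6, all among the 10 over 20 CPM, where 81.1% of all tested genes had one. In 3 of the 12, Kit, Prdm1 and Tdrd7, FGFRi was higher with no overlap, beside 3.65% of all tested genes. Kit, the receptor for stem cell factor, was at 35.0 to 40.6 CPM in FGFRi and 19.2 to 34.0 CPM in DMSO (0.54, eBayes FDR 0.21 by limma). Prdm1, the repressor that specifies germ cells, was at 15.7 to 19.4 CPM and 7.94 to 11.6 CPM (0.86, eBayes FDR 0.11 by limma). Tdrd7, a tudor protein of germ granules, was at 46.5 ± 8.56 and 30.8 ± 4.94 CPM (SD, n = 4, eBayes FDR 0.062 by limma). Dppa3, a maternal factor gene, was at 632 ± 227 and 871 ± 146 CPM (SD, n = 4, eBayes FDR 0.074 by limma).

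Pluripotency genes, which XY germ cells turn down in this window, were not called by treat or eBayes in any of 15 tested members. Of these 9 were above 0 and 6 below, and the median was 0.044. An interval within 1.5-fold was found for 6 members, all among the 9 over 20 CPM, where 81.1% of all tested genes had one. Utf1 was at 319 ± 36.6 and 325 ± 44.8 CPM (SD, n = 4), with an interval of -0.29 to 0.18. Dppa5a was at 219 ± 70.6 and 144 ± 14.8 CPM (0.57, eBayes FDR 0.13 by limma), and Nanog at 6.79 ± 3.54 and 5.34 ± 4.20 CPM (SD, n = 4). For 4 members MEKi was higher than FGFRi and for 1, Utf1, it was lower (-1.30, FDR 5.0e-06 by limma treat). Over all tested genes MEKi was called higher for 5.71% and lower for 6.98%.

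NODAL signalling genes mostly had fold changes above 0, at low levels. Of 11 tested, 10 were above 0 and 1 below, the median was 0.247, and 0 were called by treat or eBayes. In mean log2 CPM the list was at 2.80 to 3.05 over the FGFRi libraries and 2.40 to 2.58 over the DMSO libraries, without overlap. Nodal was at 3.05, 1.51, 3.87 and 1.72 CPM in FGFRi and 0, 0.836, 0.666 and 0.663 CPM in DMSO, without overlap (1.97, SE 0.69, eBayes FDR 0.14 by limma). The NODAL antagonist Lefty1 was at 65.8 ± 17.7 CPM in MEKi, 5.36 ± 1.74 CPM in FGFRi and 2.63 ± 0.97 CPM in DMSO (SD, n = 4). The receptor genes were at similar levels, with Acvr2b at 116 ± 13.9 and 108 ± 20.0 CPM (SD, n = 4) in FGFRi and DMSO.

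In BMP signalling, 1 of 14 tested genes was called lower by limma eBayes (0.629% of all tested genes were). Above 0 were 7 and below 0 were 7, and the median was 0.00161. Id4, an inhibitor of basic helix-loop-helix factors that marks spermatogonial stem cells later, was at 58.2, 39.9, 51.0 and 45.7 CPM in FGFRi and 77.9, 56.4, 75.2 and 94.2 CPM in DMSO. FGFRi replicate 2 overlapped DMSO replicate 4, and Id4 fell by 0.59 on the log2 scale (SE 0.14, FDR 0.015 by limma eBayes). Id3 was at 3.89 ± 1.43 and 8.01 ± 3.60 CPM (SD, n = 4, log2 fold change -1.10, eBayes FDR 0.26 by limma). With counts subtracted that could be tied to the library of the other pool with the same sample index, it was at -5.37 (FDR 0.010 by limma treat), but in 3 of the 4 FGFRi libraries Id3 itself set how much was subtracted, which takes its count there to 0 by construction. Smad5, a BMP signal transducer, was at 60.5 ± 6.59 and 56.8 ± 5.13 CPM (SD, n = 4). Of 10 retinoic acid genes tested, 0 were called by treat or eBayes and the median was -0.0906. Crabp1, a retinoic acid binding protein, was at 58.0 to 78.8 CPM and 44.5 to 59.4 CPM (0.55, eBayes FDR 0.070 by limma), and Dhrs3, a retinaldehyde reductase, was at 1.85 and 4.59 CPM without overlap (-1.27, eBayes FDR 0.17 by limma).

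Meiosis genes lay below XX germ cells in FGFRi and in DMSO. Of 31 genes tested, 1 was called higher and 1 lower by limma eBayes (0.446% and 0.629% of all tested genes were). Above 0 were 19 and below 0 were 12, and the median was 0.0631. Over 20 CPM, 10 of 18 had an interval within 1.5-fold, beside 81.1% of all tested genes at that level. Against XX germ cells at 72 h, 30 of the 31 were lower in DMSO (18.1% of all genes were) and 30 were lower in FGFRi (19.7%) by limma treat, in contrasts that share the XX libraries. Stra8, the gatekeeper of meiotic entry, was at 102, 186, 98.2 and 136 CPM in FGFRi and 117, 114, 59.2 and 117 CPM in DMSO, which overlapped. It was at 948 ± 186 CPM in MEKi and 696 CPM by the mean in XX, and MEKi was above FGFRi by 2.82 (FDR 1.5e-17 by limma treat).

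The 2 meiosis genes with a call moved in opposite directions. Rec8, the meiotic cohesin subunit, was at 59.4, 62.1, 58.4 and 53.9 CPM in FGFRi and 38.9, 34.7, 35.3 and 38.5 CPM in DMSO and rose by 0.67 (SE 0.18, FDR 0.036 by limma eBayes). Each FGFRi library shared its sample index with an XX 24 h library of the other pool and each DMSO library with an XY 0 h library. With the counts that could be tied to these partners subtracted, 1.04% to 2.33% of the counts in FGFRi and 0.339% to 0.702% in DMSO, the Rec8 call was lost (0.56, FDR 0.095 by limma eBayes), as it was under 9 other alternatives. Sycp3, of the synaptonemal complex, was at 316, 383, 319 and 398 CPM in FGFRi and 462, 493, 500 and 571 CPM in DMSO and fell by 0.52 (SE 0.13, FDR 0.024 by limma eBayes). Neither overlapped. Meioc, a regulator of meiotic transcripts, was at 11.6 to 24.7 CPM and 3.99 to 16.3 CPM (0.79, eBayes FDR 0.16 by limma), and Smc1b, another cohesin, at 589 ± 71.2 and 604 ± 37.1 CPM (SD, n = 4). Of 31 meiosis genes 13 were higher in MEKi than in FGFRi (5.71% of all tested genes were) and 0 lower.

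Oocyte factors held no call by treat or eBayes among 8 tested, with a median of 0.163. Sohlh1 was at 254 ± 18.0 and 225 ± 19.6 CPM and Taf4b at 158 ± 27.1 and 151 ± 14.3 CPM (SD, n = 4), both transcription regulators that spermatogonia use as well. Sohlh2 was at 13.2 ± 3.25 CPM in FGFRi and 11.7 ± 4.36 CPM in DMSO but 108 ± 2.75 CPM in MEKi (SD, n = 4), above FGFRi by 3.08 (FDR 9.0e-18 by limma treat).

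Proliferation genes were not called. None of 22 tested was called by treat or eBayes, 10 were above 0 and 12 below, the median was -0.0337, and 16 had an interval within 1.5-fold. Mki67, the marker of cycling cells, was at 35.0, 52.2, 39.8 and 37.9 CPM in FGFRi and 50.6, 51.0, 33.3 and 67.0 CPM in DMSO, which overlapped. In MEKi it was at 240 ± 15.0 CPM (SD, n = 4), above FGFRi by 2.53 (FDR 1.6e-14 by limma treat). Top2a was at 498 ± 41.0 and 473 ± 55.7 CPM and Mcm6, of the replicative helicase, at 225 ± 13.0 and 218 ± 21.4 CPM (SD, n = 4). Ccnb2, a mitotic cyclin, was at 24.1 to 39.4 CPM in FGFRi and 40.7 to 57.1 CPM in DMSO, without overlap (-0.48, eBayes FDR 0.11 by limma). Directly against FGFRi, MEKi had 13 of the 22 higher (5.71% of all tested genes were) and 0 lower.

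Among 20 regulators of G1 arrest, 1 was called lower by limma eBayes (0.629% of all tested genes were). Above 0 were 14 and below 0 were 6, and the median was 0.117. The call was Cdk6, the kinase partner of D cyclins, at 25.9, 27.8, 23.6 and 21.6 CPM in FGFRi and 45.6, 38.0, 34.6 and 48.4 CPM in DMSO. No library overlapped, and Cdk6 fell by 0.71 (SE 0.19, FDR 0.040 by limma eBayes). MEKi stood on the other side of DMSO at 84.5 ± 14.0 CPM (SD, n = 4), above FGFRi by 1.66 (FDR 3.0e-07 by limma treat). Cdkn1c, which encodes the arrest protein p57, was at 94.1 to 109 CPM in FGFRi and 63.7 to 98.5 CPM in DMSO (0.36, eBayes FDR 0.19 by limma), and Cdkn1b, which encodes p27, at 16.2 ± 2.76 and 16.2 ± 2.62 CPM (SD, n = 4). Cdk4 was at 267 ± 20.2 and 296 ± 11.9 CPM (SD, n = 4), and the S phase cyclin gene Ccne1 at 4.93 and 3.82 CPM, against 25.6 CPM in MEKi.

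Stress and cell death genes held no call by treat or eBayes. For 18 stress and p53 response genes the median was -0.0771, with 6 above 0 and 12 below, and for 13 BCL2 family genes it was 0.0679, with 7 above and 6 below. The endoplasmic reticulum chaperone Hspa5 was at 362 ± 8.95 and 383 ± 26.1 CPM, and the cytosolic chaperone Hsp90aa1 at 1855 ± 438 and 2319 ± 128 CPM (SD, n = 4). Bbc3, which encodes the pro-apoptotic PUMA and is on both lists, was at 2.37, 1.26, 0.773 and 2.15 CPM in FGFRi and 4.03, 5.85, 3.99 and 5.31 CPM in DMSO, without overlap (-1.47, SE 0.50, eBayes FDR 0.12 by limma). Chac1, of the unfolded protein response, was at 4.96 and 2.23 CPM (0.92, eBayes FDR 0.38 by limma). The survival gene Bcl2l1 was at 101 ± 10.6 and 108 ± 8.88 CPM, its killer relative Bax at 54.8 ± 6.61 and 55.9 ± 11.5 CPM, and Bik at 10.4 ± 5.22 and 7.05 ± 1.18 CPM (SD, n = 4). None of 6 drug response genes tested was called by treat or eBayes. The median was 0.123, Tiparp, a target of the aryl hydrocarbon receptor, was at 168 ± 14.9 and 164 ± 3.83 CPM, and the efflux pump gene Abcg2 at 22.6 ± 4.89 and 29.6 ± 3.29 CPM (SD, n = 4).

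The gene Col1a2 and some of the interstitial cell markers were lower in FGFRi. Col1a2, a chain of type I collagen, was at 29.9, 21.7, 24.7 and 24.1 CPM in FGFRi replicates 2, 4, 5 and 6 and 97.6, 56.0, 152 and 84.3 CPM in DMSO. All FGFRi libraries were below all DMSO libraries, and the DMSO libraries were widely spread among themselves. Col1a2 fell by 1.82 on the log2 scale (SE 0.27, FDR 5.73e-05 by limma eBayes), with an FDR of 0.11 against 1.5-fold by treat. It passed the 1.5-fold test without DMSO replicate 4, in the fit of the 8 libraries only, in the replicate block and with edgeR glmTreat. Under the other alternatives Col1a2 did not pass it. Its partner chain Col1a1 was at 16.1 ± 3.15 and 29.4 ± 7.08 CPM (SD, n = 4) and was not called (-0.83, eBayes FDR 0.097 by limma).

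The 11 Leydig and interstitial markers together took 0.00600% to 0.00821% of the counts in FGFRi and 0.00892% to 0.0143% in DMSO, which did not overlap. Of the 8 that passed the filter, 7 were below 0 and 1 above, and the median was -1.02. Acta2 and Nr2f2, 2 of these markers, were called lower by limma eBayes, beside 0.629% of all tested genes. Acta2, smooth muscle actin, was at 3.89, 2.52, 4.64 and 4.74 CPM in FGFRi and 16.6, 7.94, 15.3 and 6.63 CPM in DMSO and fell by 1.61 (FDR 0.0099 by limma eBayes). Nr2f2, a transcription factor of interstitial cells, was at 5.03 to 6.43 CPM and 11.7 to 22.4 CPM and fell by 1.35 (FDR 0.028 by limma eBayes). Sparcl1 was at 4.23 to 5.41 CPM and 8.36 to 19.3 CPM and fell by 1.46 (FDR 0.013 by limma eBayes). The part of these markers in the values of Col1a2 and Sparcl1 was not tested. Dcn, a matrix proteoglycan, was at 1.01 to 7.95 CPM and 9.85 to 18.0 CPM (-1.60, eBayes FDR 0.061 by limma), and Tril at 1.16 and 4.16 CPM (-1.66, eBayes FDR 0.074 by limma).

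Markers of other cells held no call by treat or eBayes. Sertoli markers took 0.00389% to 0.00683% of the counts in FGFRi and 0.00376% to 0.00584% in DMSO, with Sox9 at 10.1 ± 4.58 and 10.6 ± 4.08 CPM and Ptgds at 10.2 ± 1.91 and 9.84 ± 0.62 CPM (SD, n = 4). Erythroid markers took 0.00342% to 0.00837% and 0.00410% to 0.00902%. Granulosa, endothelial and macrophage markers each took at most 0.00421% in every library of either group, with medians of -0.153 over 4 genes, -0.313 over 2 genes and -0.474 for the 1 macrophage gene tested, whose log2 CPM lay at 2.86 to 3.51 in FGFRi and 3.64 to 4.03 in DMSO without overlap.

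The remaining genes were named for having the smallest treat p among those whose groups do not overlap. Dlgap3, a scaffold of synapses, was at 53.3, 54.0, 76.5 and 59.1 CPM in FGFRi and 35.8, 26.8, 30.0 and 19.2 CPM in DMSO and rose by 1.02 (SE 0.18, FDR 0.00078 by limma eBayes). It went the other way in MEKi, which was lower than FGFRi by -2.40 and lower than DMSO by -1.37. In the germ cells of the vehicle it was at 5.05 CPM at 24 h and 27.9 CPM at 72 h, where time and library pool cannot be told apart. Abca1, Mylip, Dlgap3, Pdk1 and Col1a2 kept an eBayes call under all 15 alternatives that give one. Etv5 and 4930455M05Rik kept it under 13 of the 15, Acta2 and Myom2 under 12, Sparcl1 under 11, Id4, Hk1 and Aldoa under 10, Insig1, Lrrfip1, Sycp3, Foxp2, Cacng6 and Atosb under 9, Nr2f2 and Cdk6 under 7, Vstm2l under 6 and Rec8 under 5, with the sign unchanged in all of them.

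Lower-level genes higher in FGFRi were Myom2, of the sarcomere, at 11.2 to 22.0 CPM against 4.64 to 9.85 CPM (1.31, FDR 0.012 by limma eBayes), and Foxp2, a forkhead factor, at 6.57 to 11.6 CPM against 1.33 to 5.43 CPM (1.44, FDR 0.028 by limma eBayes). The calcium channel subunit gene Cacng6 and Atosb had fold changes of 1.37 (FDR 0.026) and 1.35 (FDR 0.024 by limma eBayes). Potefam3a had 0 counts in all DMSO libraries and 19 counts over the FGFRi libraries, at least 3.2-fold higher against a floor of 3 counts over the group, with an eBayes FDR of 0.059 by limma. Col9a1 (3.71 against 0.912 CPM) and the pseudogene Tubb4b-ps1 (14.7 against 5.66 CPM), which shares sequence with its parent gene so that reads may be split, were not called.

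The transcript 4930455M05Rik fell by 1.67 (FDR 0.011 by limma eBayes), from 6.94 to 2.48 CPM, and Vstm2l fell by 1.28 (FDR 0.028 by limma eBayes), from 9.37 to 4.27 CPM. The Vstm2l call was lost under 9 alternatives, with the pool 2 libraries only among them, and its FDR ranged from 0.0042 to 0.28 by limma eBayes. Leaving out FGFRi replicate 2, the deepest of the 8 libraries, ended the eBayes calls of Etv5, Lrrfip1, Insig1, Hk1, Rec8, Sycp3, Cdk6, Acta2, Nr2f2, Sparcl1, Vstm2l, 4930455M05Rik, Myom2, Foxp2, Cacng6 and Atosb. Set against DMSO, MEKi was lower too for 4930455M05Rik (-3.27, FDR 1.2e-05 by limma treat) and Vstm2l (-2.54, FDR 0.00025 by limma treat).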

How the data were processed

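RNA from sorted germ cells was primed at the poly(A) tail with a sample index and a unique molecular identifier (UMI), pooled and amplified. Per the methods of the study, scPipe split the reads by index, Rsubread aligned them to GRCm39, exon mapping followed, and reads sharing a UMI were collapsed, which gave the whole-number counts per gene and library that the authors deposited, with no normalisation. The submitters' processing notes also name edgeR and limma. The annotation release and tool versions are not given in the sources used here. The methods describe a longer UMI than the code reads, and which applies is not known.

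Gene identifiers were matched to GENCODE M39 (40391 of 42422 matched). Genes were kept with filterByExpr (minimum count 10, minimum total 15), counts were scaled by TMM, and voomWithQualityWeights was fitted over all 40 libraries with a mean per group in limma 3.58.1 (edgeR 4.0.16, DESeq2 1.42.0, R 4.3.3). Treat against 1.5-fold was the main test, as in the study, and eBayes without a fold threshold the second, both with Benjamini-Hochberg adjustment at 0.05. Total counts were 1462982 to 5199153 in the 8 libraries, and floors cover counting error only. The labels call the 4 libraries of a group replicates. Whether they came from separate litters is not given in the sources used here, so p-values measure the spread between these libraries. The members and gene lists were chosen with earlier results of these data known. Named genes were those called, the 10 higher and 10 lower with the smallest treat p whose groups do not overlap, the genes called in the interaction, and members of 27 lists, with at least the 2 highest and the 2 largest fold changes per list. Over all tested genes, same-numbered FGFRi and DMSO libraries did not deviate together (r = 0.085, -0.051, -0.092 and -0.011). The percent of mitochondrial counts rose from replicate 2 through 4 and 5 to 6 in FGFRi (1.16 to 1.77) and in DMSO (1.62 to 2.03). Whether the numbers pair libraries is therefore not settled here. The fits were tested on simulated data. Alternatives covered the filter, scaling, weights, libraries fitted, replicate block, each replicate left out, subtraction of counts tied to a sample index shared with the other pool, edgeR and DESeq2. Somatic libraries were not analysed here. Some list members and genes that met the naming rule are not reported here.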

Additional observations from a re-analysis of the deposited data

Results flagged for a closer look

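A library that stood apart from the other 3 of its group was found 14 times over 234 groups of values looked at (5.98%), where chance gives about 1 in 20.

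Among the genes with a call at 72 h, Abca1 was at 53.7 CPM in DMSO replicate 6 (the others 49.3 to 49.9), Pdk1 at 23.2 CPM in FGFRi replicate 4 (34.0 to 35.2), 4930455M05Rik at 5.33 CPM in DMSO replicate 5 (7.30 to 7.61) and Vstm2l at 12.6 CPM in DMSO replicate 6 (7.99 to 8.50). None of these values lay within the range of the other group. Among list members without a call, Irx3 was at 0 CPM in DMSO replicate 5 (1.67 to 1.99), Cdkn2c at 0.677 CPM in FGFRi replicate 2 (2.16 to 2.32), Bcl2l1 at 84.8 CPM in FGFRi replicate 2 (105 to 106) and Pkm at 584 CPM in DMSO replicate 2 (651 to 656). Among markers of other cells, Cst9 was at 14.7 CPM in FGFRi replicate 2 (6.04 to 7.35), Col1a1 at 18.8 CPM in DMSO replicate 4 (31.9 to 33.6), Tcf21 at 7.99 CPM in DMSO replicate 5 (3.58 to 4.18) and Rspo1 at 12.6 CPM in DMSO replicate 6 (17.9 to 18.4). The embryonic globins Hbb-y and Hba-x were at 12.0 and 3.48 CPM in FGFRi replicate 5, against at most 0.862 and 0.431 CPM in the other FGFRi libraries.

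The FGFRi effect at 72 h differed from that at 24 h for 5 genes by the interaction test in limma treat. The effect at 72 h less that at 24 h, in log2, was 5.20 for Etv4, 4.15 for Ret, 2.61 for Pmaip1, 1.80 for Nherf1 and -3.47 for Sparcl1. The 24 h DMSO libraries were in the other pool, so time and pool cannot be told apart here.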

How the results depend on the processing

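Abca1 was called under every alternative run. The treat count of 1 gene became 2 in the fit of the 8 libraries only, in the replicate block and with edgeR glmTreat, each adding Col1a2, and 1 to 2 when a library was left out, where Col1a2 was added without DMSO replicate 4. It was also 2 after index-tied counts were subtracted, adding Id3 (-5.37), which itself set the size of that subtraction in 3 of the 4 FGFRi libraries. Without a fold threshold it was 164, and 86 where a fold over 1.5 was also observed. That eBayes count of 164 was tried under alternatives chosen after seeing the data. It was 651 with no filter, 65 without quality weights, 1013 in the replicate block and 42 to 414 when a library was left out. Whether the replicate numbers pair the libraries is not known. The split of calls was 68 higher to 96 lower as reported and 110 to 102 with the pool 2 libraries only. Without the filter the median of all genes was -0.177. The interaction count of 5 was 15 with no filter, 9 with edgeR glmTreat and 3 to 7 when a library was left out. It could not be fitted within pool 2. Narrow intervals (7142 genes) and MEKi against FGFRi (1936 genes) moved to 5664 to 8423 and 1353 to 2399. Followed were 362 genes, the named genes and all tested list members. Of their 6095 values under alternatives, 6090 kept their side of the treat threshold, 5 newly passed it, and 329 had another sign than reported. Of 24 eBayes-called genes followed, 257 of 360 calls were kept, with 0 changes of sign. The cause of these shifts was not tested. No gene under 5 CPM had a narrow interval.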

Other observations

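Groups of genes outside the lists were looked at after their values were seen, so their counts are a description with no test of the group. Among 79 genes for cytoplasmic ribosomal proteins, 5 were called lower by limma eBayes, beside 0.629% of all tested genes. Of the 79, 68 had a fold change below 0, with a median of -0.185 beside 0.00841 over all tested genes. They took 3.38% to 4.20% of the counts in FGFRi and 4.03% to 4.49% in DMSO, which overlap, and reads shared with their many pseudogenes make single values uncertain. Rpl35 fell by 0.58 on the log2 scale (FDR 0.0099 by limma eBayes), from 1671 to 1177 CPM, and Rpl4 by 0.43 (FDR 0.020 by limma eBayes). The 13 mitochondrial protein genes went both ways, with 8 below 0, 5 above and a median of -0.114. In MEKi against DMSO the medians were -0.26 for cytoplasmic ribosomal protein genes and -0.709 for mitochondrial ribosomal RNA genes. Both mitochondrial ribosomal RNA genes were called lower in FGFRi by limma eBayes, at 0.363% to 0.619% of the counts in FGFRi and 0.621% to 0.821% in DMSO. These shares moved with the total count per library. Its mean was larger in FGFRi, with ranges that overlapped, and the part of depth in these shares was not tested.

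Of 14 tubulin genes, 9 were above 0, with a median of 0.139. Called by limma eBayes were 3 higher (Tubb4b, Tubb2b and Tuba3b) and 1 lower (Tuba1c), beside 0.446% and 0.629% of all tested genes. Tubulin genes took 0.303% to 0.352% of the counts in FGFRi and 0.261% to 0.304% in DMSO.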
